A study of Mus musculus with 29 samples.

Results

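The series follows mouse paraxial mesoderm at embryonic day 9.0 along 4 axial levels, and the comparison described here sets the ends against each other: the oldest somites (SOMD, 4 libraries) against the presomitic mesoderm with the newest somite (SOMA, 3 libraries). These 7 libraries, of 29 in the series, were taken by their titles, SOMD1 to SOMD4 and SOMA1, SOMA3 and SOMA4. Per the labels, both groups come from E9.0 embryos of the C57BL/6 strain that carry a Dll1-YFP mark, and both were dissociated and sorted for YFP-positive cells, which the labels call Dll1 lineage; Dll1 is a Notch ligand of the presomitic mesoderm. The SOMD label gives somite 10 as the first somite of every library and somite 13, 14, 15 and 16 as the last one of SOMD1, SOMD2, SOMD3 and SOMD4. The SOMA label gives presomitic mesoderm together with the most recent somite, called not yet committed. How the YFP mark was built, and how many embryos went into a library, the labels do not say. RNA was turned into libraries with a kit that does not mark strand, using 11 rounds of PCR, and the deposited values are read counts per gene. The levels between the ends, SOMB (somites 2 to 5) and SOMC (somites 6 to 9), entered the same model and appear below as a course. The rest of the series, cultured explants and MUT and WT tissue samples, entered only an alternative fit.

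Paraxial mesoderm forms at the tail end of the embryo and is cut into somites in a rhythm set by Notch, Wnt and FGF signals. Each somite then divides into sclerotome, which gives vertebrae and ribs, and dermomyotome, from which dermis and the first muscle, the myotome, arise. Somites are laid down from head to tail, so SOMD cells formed somites earliest and lie farthest forward; age and axial position therefore change together between SOMD and SOMA and cannot be told apart.

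SOMD1 and SOMD4 were nearly identical: beyond counting error they differed by a coefficient of variation of 0.0248, whereas the other SOMD pairs differed by 0.117 to 0.129 and the SOMA pairs by 0.0954 to 0.146. Their labels name different last somites. The pair was summed and counted as 1 sample, so all tests rest on 3 SOMD and 3 SOMA samples, and nothing in the labels says that these came from separate embryos. Gene counts ran from 11541131 to 27838317 in the SOMD libraries and from 14090592 to 28047218 in the SOMA libraries. Reads in no gene made 9.82 to 12.4% of the total in SOMD and 9.12 to 12.8% in SOMA, with SOMD1, SOMD4 and SOMA1 above 11% and the others below. Values are CPM, counts per 1000000 counts of the TMM-scaled library, listed in the order SOMD1, SOMD2, SOMD3 and SOMD4, then SOMA1, SOMA3 and SOMA4. Means are ± SD over 3 samples per group.

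Of 13711 genes tested, 1137 were higher in SOMD than in SOMA (8.29% of the genes tested) and 929 were lower (6.78%), by edgeR's quasi-likelihood test with Benjamini-Hochberg adjusted p under 0.05. At least 2-fold differences made up 592 of the higher and 475 of the lower genes, and at least 8-fold ones 114 and 113. The median log2 fold change over all genes tested was 0.000748. All SOMD libraries lay above all SOMA libraries for 2034 genes (14.8%) and below them for 1837 genes (13.4%). Among called genes the groups did not overlap for 1116 of the 1137 higher and 919 of the 929 lower ones. For a called gene below, the lack of overlap is therefore a description and no further support. Without SOMA4 the count of higher genes was 746. In bulk RNA, fewer cells of a type and less RNA per cell cannot be told apart, which holds for every gene below.

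**Figure D1:**
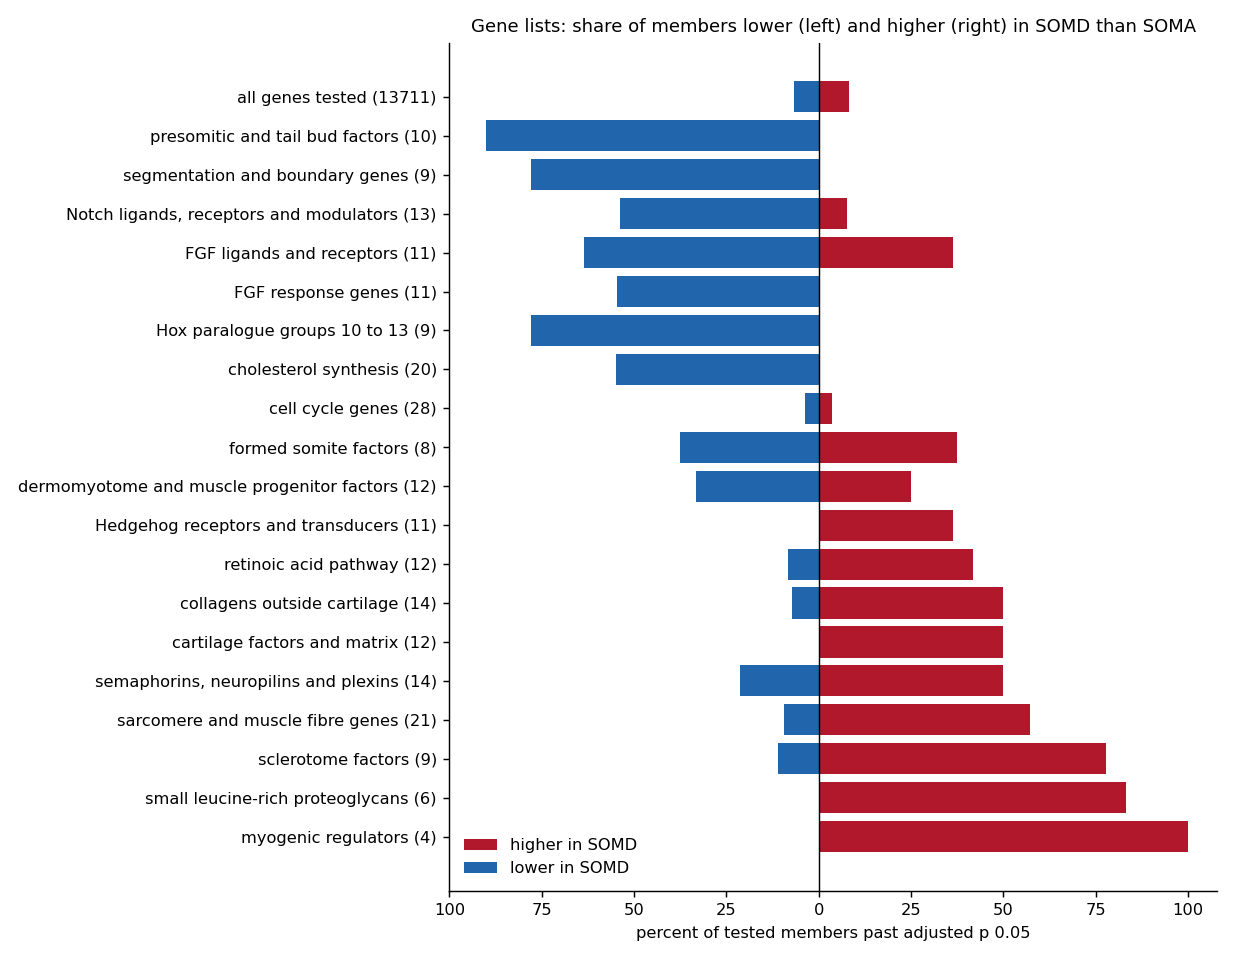
Share of the tested members of each gene list (number tested in parentheses) that were lower (left, blue) or higher (right, red) in SOMD than in SOMA at edgeR adjusted p under 0.05, in percent. Of 10 presomitic and tail bud factors 9 were lower and none higher, and all 4 tested myogenic regulators were higher, against 6.78% and 8.29% of all genes tested.

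Factors of the presomitic state were far lower in SOMD. Of 10 presomitic and tail bud factors 9 fell and none rose, with a median log2 fold change of -6.5, and the exception, Cdx1, averaged 15.8 ± 3.98 CPM in SOMD and 17.1 ± 3.55 CPM in SOMA. Msgn1, a basic helix-loop-helix factor that drives presomitic fate, had 0.131, 0, 0.151 and 0.14 CPM in SOMD, against 11.2, 37.9 and 39.7 CPM in SOMA (log2 fold change -7.94 ± 0.64 SE, edgeR adjusted p = 2.95e-06). Tbx6, the T-box factor that sets paraxial against neural fate, had 0.719, 0.603, 0.602 and 0.455 CPM in SOMD, against 49.2, 78.4 and 70.7 CPM in SOMA (log2 fold change -6.84 ± 0.66 SE, edgeR adjusted p = 1.26e-05). Brachyury (T), the T-box factor of the primitive streak and tail bud, had 0.392, 0.43, 1.05 and 0.42 CPM in SOMD, against 26.1, 66.9 and 58.6 CPM in SOMA (log2 fold change -6.46 ± 0.43 SE, edgeR adjusted p = 7.48e-07). No SOMD library overlapped a SOMA library for any of these genes, and SOMA1 held the lowest SOMA level of each. Cdx2 and Cdx4, caudal homeobox factors of the tail bud, had log2 fold changes of -7.66 and -9.87, and SOMA1 was again the lowest SOMA library, with 23.1 CPM of Cdx4 against 90.2 and 66.2 CPM in SOMA3 and SOMA4. The summed level of the 10 factors was 17.7 to 28.8 CPM in the SOMD libraries and 190, 422 and 365 CPM in SOMA1, SOMA3 and SOMA4.

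Genes that lay down the next somite boundary fell as well, 7 of 9 with a median log2 fold change of -5.54 and none higher. Mesp2, which places the boundary and gives the forming somite its front compartment, had 0.0654, 0.0861, 0.151 and 0.0699 CPM in SOMD, against 19.8, 22.7 and 21.2 CPM in SOMA (log2 fold change -7.81 ± 0.63 SE, edgeR adjusted p = 3.02e-06). Ripply2, a co-repressor that ends Mesp2 and Tbx6 activity, had 0.261, 0, 0.0753 and 0.14 CPM in SOMD, against 23, 17.9 and 25.8 CPM in SOMA (log2 fold change -7.4 ± 0.68 SE, edgeR adjusted p = 8.36e-06). Cer1, a secreted antagonist of Nodal, BMP and Wnt marking the newest somites, had 0.0654, 0.0861, 0 and 0.0699 CPM in SOMD, against 35.9, 38.2 and 34.1 CPM in SOMA (log2 fold change -9.15 ± 1.08 SE, edgeR adjusted p = 6.87e-05). The groups were wide apart and did not overlap, and SOMA1 stood close to the other SOMA libraries. Pcdh8, the protocadherin of the forming somite, averaged 2.8 ± 0.41 CPM in SOMD and 125 ± 21.7 CPM in SOMA. Mesp1, the relative of Mesp2, averaged 0.0563 ± 0.0488 CPM in SOMD and 6.45 ± 1.15 CPM in SOMA, and both fell. Snai1 and Efnb2 were the members of the list that did not pass the test, with log2 fold changes of 0.08 and 0.09.

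**Figure D2:**
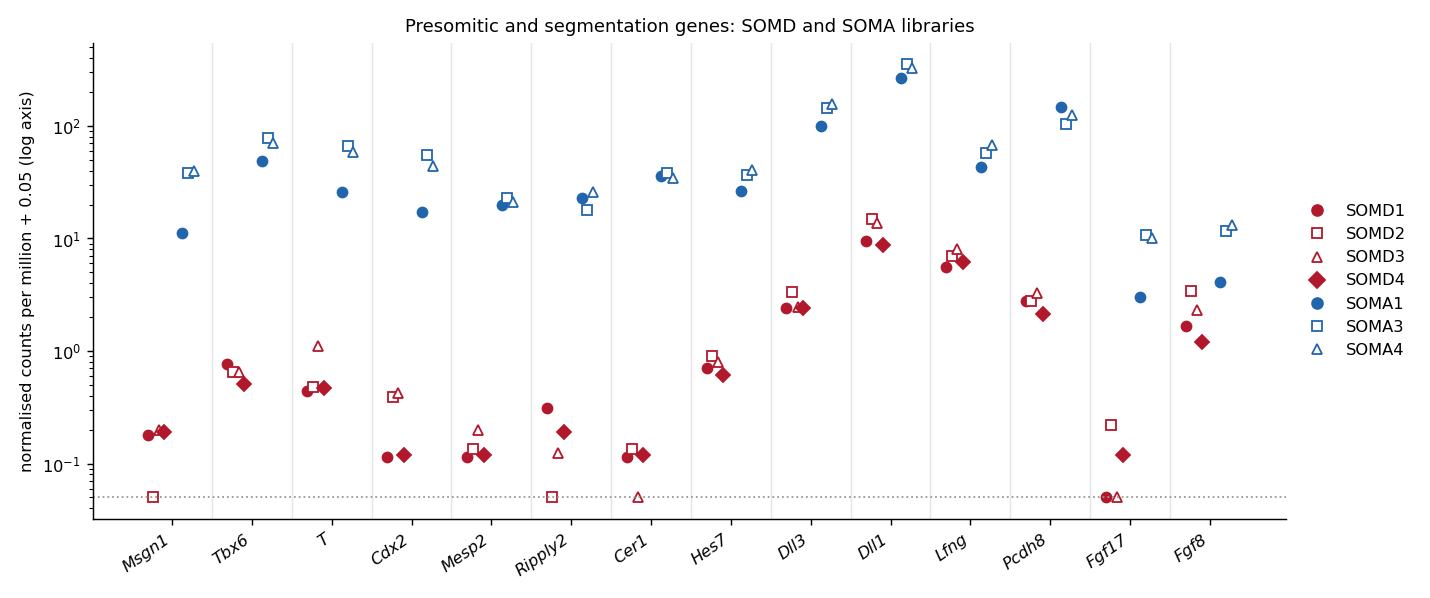
Normalised CPM plus 0.05 on a log axis for 14 presomitic, segmentation, Notch and FGF genes; each symbol is a library, SOMD in red left of SOMA in blue, filled where more than 11% of reads fell in no gene, and the dotted line marks 0. For all 14 genes the 4 SOMD libraries lie below the 3 SOMA libraries, and SOMA1 is the lowest SOMA library for all but Ripply2, Cer1 and Pcdh8.

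Notch genes of the segmentation clock fell too. Among 13 ligands, receptors and modulators 7 fell and 1, Rfng, rose (median log2 fold change -1.25); without SOMA3, SOMA4 or SOMD2 none rose. Dll1, the ligand whose lineage mark was sorted, had 9.41, 14.8, 13.8 and 8.71 CPM in SOMD, against 265, 353 and 325 CPM in SOMA (log2 fold change -4.69 ± 0.25 SE, edgeR adjusted p = 1.58e-07). Dll3, a divergent ligand that acts inside the cell, averaged 2.68 ± 0.516 CPM in SOMD and 133 ± 30.1 CPM in SOMA. Nrarp, a feedback inhibitor and Notch target, averaged 7.94 ± 1.68 CPM in SOMD and 186 ± 45.5 CPM in SOMA; both fell. Lfng, the glycosyltransferase whose rhythm times segmentation, had 5.49, 6.97, 8.05 and 6.08 CPM in SOMD, against 43.6, 57.1 and 67.3 CPM in SOMA (log2 fold change -3.02 ± 0.22 SE, edgeR adjusted p = 1.38e-06). Every SOMD library still held Dll1 and Lfng reads, and the groups did not overlap. Notch1, the receptor of the clock, averaged 79.3 ± 15.1 CPM in SOMD and 327 ± 26.1 CPM in SOMA; it was chosen after its values were seen. Of 7 Hes and Hey effectors 3 fell: Hes7, the oscillating repressor of the clock (-5.63), and the Notch effectors Hey2 (-2.35) and Hey1 (-2.02), all as log2 fold changes. Hes1, a broader Notch effector, did not pass the test, with a log2 fold change of -0.64; without SOMA4 it passed (edgeR adjusted p = 0.0321).

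The tail bud is a source of FGF and Wnt. Of 11 FGF ligands and receptors 7 fell and 4 rose (median log2 fold change -1.97), and the receptor Fgfr1 was the only one of the 7 that is not a ligand. Its log2 fold change was -0.37 (edgeR adjusted p = 0.0496), and it lost its call without any of SOMA1, SOMA3, SOMA4, SOMD2, SOMD3 or SOMD4. Fgf8, the main tail bud ligand of the presomitic gradient, had 1.63, 3.36, 2.26 and 1.15 CPM in SOMD, against 4.06, 11.6 and 13.1 CPM in SOMA (log2 fold change -2.12 ± 0.42 SE, edgeR adjusted p = 0.00322). Fgf17, a further tail bud ligand, averaged 0.069 ± 0.091 CPM in SOMD and 7.87 ± 4.25 CPM in SOMA. Fgf3, also of the tail bud, averaged 0.133 ± 0.118 CPM in SOMD and 7.96 ± 2.99 CPM in SOMA, and Fgf18 averaged 1.83 ± 0.516 CPM in SOMD and 38.4 ± 3.2 CPM in SOMA. All 3 fell and none overlapped between the groups. The other way round, Fgf10, a ligand of limb and dermomyotome chosen after its values were seen, had 38.9, 22.2, 37.6 and 42.7 CPM in SOMD, against 18, 11.7 and 12.4 CPM in SOMA (log2 fold change 1.26 ± 0.24 SE, edgeR adjusted p = 0.00256). The 3 others that rose were receptors (Fgfr2, Fgfr3 and Fgfr4), and without SOMA3, SOMA4 or SOMD2 2 genes of the list were called higher. FGF response genes were lower by less: 6 of 11 fell and none rose (median -0.70), among them Dusp4, a phosphatase acting on ERK (-1.23), the Ets factors Etv4 (-1.16) and Etv5 (-0.96), and the feedback inhibitor Spry2 (-0.70), all as log2 fold changes.

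Of 8 Wnt ligands 4 fell and 1 rose, or 2 without SOMA3. Wnt3a, the canonical ligand needed for presomitic cells to form, had 0.0654, 0, 0.602 and 0.0699 CPM in SOMD, against 1.47, 6.31 and 4.89 CPM in SOMA (log2 fold change -4.5 ± 0.89 SE, edgeR adjusted p = 0.00299). Wnt5a, a ligand of axis elongation, averaged 50.5 ± 2.77 CPM in SOMD and 166 ± 5.12 CPM in SOMA, with Wnt5b (-1.31) and Wnt8a (-3.02) also lower on the log2 scale. Wnt2b, the ligand that rose, averaged 5.84 ± 2.03 CPM in SOMD and 1.91 ± 0.359 CPM in SOMA. The groups did not overlap for any of the 5 that passed. Of 9 Wnt response genes 3 fell, the nuclear mediator Lef1 (-1.53), the ubiquitin ligase Rnf43 (-3.28) and the antagonist Dkk1 (-1.63), while Lgr5 rose (1.05). Leaving out SOMA4 took the call from Dkk1 (edgeR adjusted p = 0.0552). Leaving out any of SOMA1, SOMA3, SOMA4, SOMD2 or SOMD3 took that of Lgr5, with an adjusted p of 0.0597 to 0.11 by edgeR. Of 8 Wnt antagonists 4 rose and 2 fell. Sfrp5, a secreted binder of Wnt proteins, averaged 2.26 ± 0.431 CPM in SOMD and 0.206 ± 0.0793 CPM in SOMA and rose. Wif1, another, averaged 6.88 ± 2.4 CPM in SOMD and 1.72 ± 0.50 CPM in SOMA and rose, whereas Sfrp4 (-2.69) and Frzb (-1.44) were lower on the log2 scale.

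Retinoic acid opposes FGF and Wnt in front of the tail bud. Of 12 pathway genes tested 5 rose and 1 fell (median log2 fold change 0.57). Aldh1a2, the enzyme that makes retinoic acid in somites, had 189.6, 352, 263 and 192 CPM in SOMD, against 246, 126 and 117 CPM in SOMA and did not pass the test (log2 fold change 0.72 ± 0.31 SE, edgeR adjusted p = 0.157). SOMA1 lay within the range of the SOMD libraries, while SOMA3 and SOMA4 lay below it; without SOMA1 it passed (log2 fold change 1.15, edgeR adjusted p = 0.0172). The receptor Rarb, itself a retinoic acid target, averaged 44.2 ± 4.79 CPM in SOMD and 22.3 ± 5.63 CPM in SOMA and rose. The receptor Rarg averaged 39.7 ± 6.44 CPM in SOMD and 82.5 ± 7.79 CPM in SOMA and fell. Cyp26b1, which breaks retinoic acid down, averaged 10.1 ± 3.09 CPM in SOMD and 2.37 ± 0.763 CPM in SOMA and rose (log2 fold change 2.07 ± 0.34 SE, edgeR adjusted p = 0.000817). Cyp26a1, the tail bud enzyme of the same reaction, was low throughout at 2.18 ± 1.1 CPM in SOMD and 3.13 ± 1.07 CPM in SOMA and did not pass. Without SOMA3, SOMA4 or SOMD2, 2 of the pathway's genes were called higher.

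The starts of 10801 of the 13711 tested genes have an entry in the RefSeq promoter table of GRCm38.p6, which holds 250 bases before and 50 after the start. They were searched on both strands for TCACACC (T-box site), CTTTGAT (TCF and LEF site), GTGGGAA (RBPJ site, the Notch transcription factor), CAGCTG (an E-box of muscle genes) and GACCACCCA (GLI site). The promoters of Msgn1, Ripply2, Hes7 and Myog are shown because these genes are described among the presomitic and muscle changes and hold a match, and that of Tnni1 as an example of the E-box, chosen after its values were seen; each run is the 250 bases upstream of the start, 5′ to 3′ on the gene's strand, with matches in capitals. Msgn1 lies on the minus strand (chr12:11208949-11209198) with a TCF and LEF and an RBPJ match, and Ripply2 on the plus strand (chr9:87015287-87015536) with a T-box match. Hes7 lies on the plus strand (chr11:69120203-69120452) with an RBPJ match. Myog is on the plus strand (chr1:134289754-134290003) with a T-box match next to its start, and Tnni1 is on the plus strand (chr1:135799171-135799420) with an RBPJ match and an E-box.
Msgn1: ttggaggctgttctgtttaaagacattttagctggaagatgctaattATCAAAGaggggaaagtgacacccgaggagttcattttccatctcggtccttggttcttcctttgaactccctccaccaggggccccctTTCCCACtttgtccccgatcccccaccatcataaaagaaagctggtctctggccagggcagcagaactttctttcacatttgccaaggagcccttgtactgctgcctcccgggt
Ripply2: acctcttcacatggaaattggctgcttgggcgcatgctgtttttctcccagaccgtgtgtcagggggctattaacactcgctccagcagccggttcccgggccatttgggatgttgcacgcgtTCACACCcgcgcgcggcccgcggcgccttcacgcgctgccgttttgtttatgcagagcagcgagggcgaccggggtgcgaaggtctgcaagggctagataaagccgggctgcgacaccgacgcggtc
Hes7: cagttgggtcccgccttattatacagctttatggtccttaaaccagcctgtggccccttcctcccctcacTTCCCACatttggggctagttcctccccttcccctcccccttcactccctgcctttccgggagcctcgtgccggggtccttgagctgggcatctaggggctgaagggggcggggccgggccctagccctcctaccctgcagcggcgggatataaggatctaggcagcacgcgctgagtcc
Myog: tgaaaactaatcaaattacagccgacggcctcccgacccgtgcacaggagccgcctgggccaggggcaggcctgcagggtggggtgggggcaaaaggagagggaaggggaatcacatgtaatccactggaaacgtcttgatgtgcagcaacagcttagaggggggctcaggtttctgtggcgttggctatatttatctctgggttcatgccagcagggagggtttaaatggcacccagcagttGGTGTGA
Tnni1: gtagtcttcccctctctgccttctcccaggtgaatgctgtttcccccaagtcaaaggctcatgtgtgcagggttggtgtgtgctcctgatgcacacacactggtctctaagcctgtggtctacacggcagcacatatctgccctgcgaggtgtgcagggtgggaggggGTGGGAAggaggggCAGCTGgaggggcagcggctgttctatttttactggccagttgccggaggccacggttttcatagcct

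The T-box site was found in 3 of 18 presomitic and segmentation genes with a promoter (16.7%), against 4.1% of all tested genes. The TCF and LEF site was also in 3 of these 18, against 3.0% of all, and the RBPJ site in 2 (11.1%), against 7.29%. Muscle genes held the E-box in 7 of 21 promoters (33.3%), against 17.9% of all tested genes. Of the 17 promoters among the 20 largest decreases, the T-box, TCF and LEF and RBPJ sites were in 2 each (11.8%) and the E-box in 5 (29.4%), and of the 13 among the 20 largest increases 1 held a TCF and LEF site (7.69%) and none the T-box, RBPJ or E-box letters. The GLI letters were in none of these lists and in 0.259% of all promoters. These are counts of letters in short windows and were not tested.

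Hox genes are numbered by paralogue group, and the later groups mark more posterior levels of the body. Of 9 tested genes of paralogue groups 10 to 13, 7 fell and none rose (median log2 fold change -4.03), and all 9 had every SOMD library below every SOMA library. Hoxc10, a lumbar and hindlimb-level gene, had 0, 0, 0 and 0.0699 CPM in SOMD, against 143, 123 and 154 CPM in SOMA. That is 2 counts in all SOMD libraries and 8339 in all SOMA libraries, 4870.0-fold lower in SOMD (95% exact interval of counting error 1350.0 to 40300.0), and edgeR gave an adjusted p of 0.000237. Hoxa13, a gene of the tail end, had 1 count in SOMD and 355 in SOMA, and Hoxc11 had 2 counts in SOMD and 542 in SOMA. Hotair, a long RNA from the HoxC cluster chosen after its values were seen, had no count in SOMD and 134 in SOMA, at least 52.2-fold lower with SOMD set to 3 counts over the group; it lost its call without SOMD1 and SOMD4 together (edgeR adjusted p = 0.0538).

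Among the HoxA and HoxD genes of these groups, Hoxa10, Hoxd11 and Hoxd13 varied within SOMD. Hoxa10 had 20.9, 2.24, 3.61 and 19.5 CPM in SOMD, against 123, 70.2 and 78.9 CPM in SOMA (log2 fold change -3.2 ± 0.97 SE, edgeR adjusted p = 0.0396). Hoxd11 had 4.44, 0.43, 0.376 and 4.76 CPM in SOMD, against 51, 30.7 and 32.1 CPM in SOMA (log2 fold change -4.03 ± 0.99 SE, edgeR adjusted p = 0.0128). Hoxd13, chosen after its values were seen, had 6.54, 0.689, 2.63 and 5.91 CPM in SOMD, against 81, 29.8 and 24.9 CPM in SOMA (log2 fold change -3.66 ± 1.11 SE, edgeR adjusted p = 0.041). In all 3 the pair SOMD1 and SOMD4 stood above SOMD2 and SOMD3, yet below every SOMA library. Hoxd13 lost its call without any of SOMA1, SOMA3, SOMA4, SOMD2 or SOMD3, with an edgeR adjusted p of 0.0544 to 0.127, and without the pair (0.0639). Leaving out SOMA1, SOMA3, SOMA4, SOMD2 or SOMD3 took the call from Hoxa10 (edgeR adjusted p of 0.0619 to 0.128), and without SOMA1, SOMA3, SOMD2 or SOMD3 4 of the 9 genes were called lower.

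In groups 8 and 9, 3 of 7 genes fell and none rose, with log2 fold changes of -1.6 for Hoxa9 and -1.35 for Hoxc8. Hoxc9 averaged 3.17 ± 0.214 CPM in SOMD and 40.4 ± 7.23 CPM in SOMA. Groups 5 to 7 were mixed, with 2 of 8 higher and 4 lower. Hoxc5 averaged 42.8 ± 6.85 CPM in SOMD and 18.4 ± 2.18 CPM in SOMA. Hoxb5 averaged 30.1 ± 3.44 CPM in SOMD and 17.7 ± 0.928 CPM in SOMA, and like Hoxc5 it rose. Hoxb7 (-0.98) and Hoxc6 (-0.84) were lower on the log2 scale. In groups 1 to 4, 1 of 12 rose, Hoxa4 (1.13), and 4 fell. Hoxb1, a first-group gene that is also active in the tail bud, had 17, 31.8, 22.5 and 15.5 CPM in SOMD, against 56.1, 64 and 72.2 CPM in SOMA (log2 fold change -1.48 ± 0.22 SE, edgeR adjusted p = 0.000357). Hoxd1 was lower too (-2.37), and Hoxd4 fell as well (-1.07). Among homeodomain partners of Hox proteins, Pbx3 (0.82) and Meis2 (0.51) rose in SOMD on the log2 scale, and Meis1 did not pass (0.33), though it did without SOMA1 (edgeR adjusted p = 0.00981).

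**Figure D3:**
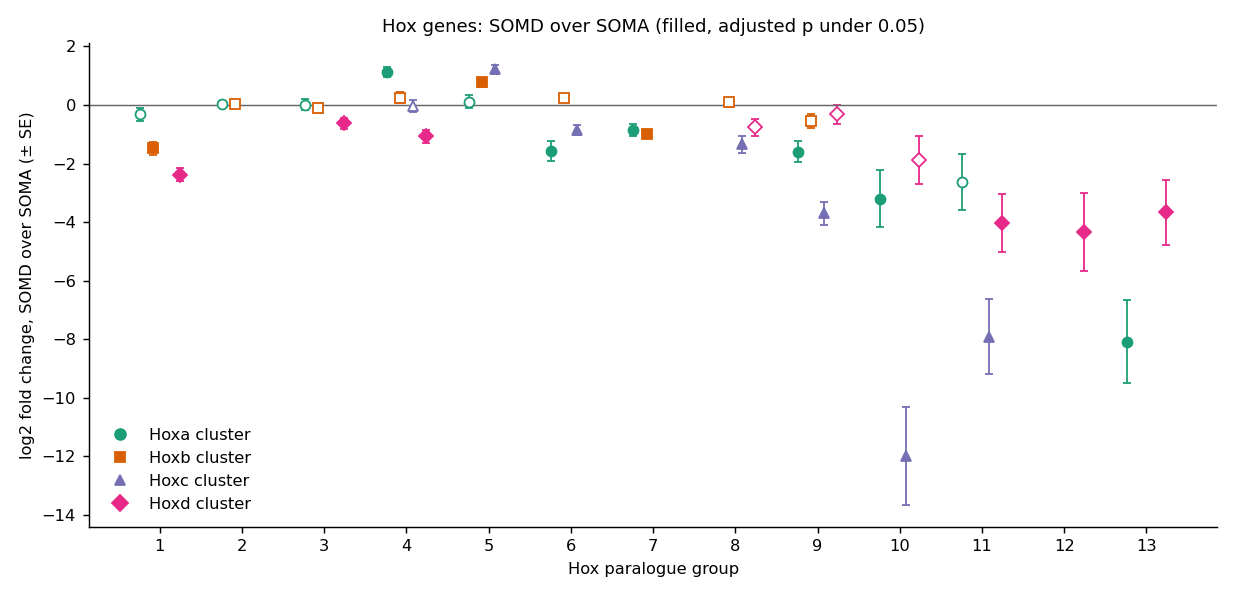
Log2 fold change of SOMD over SOMA with its standard error (edgeR, 3 samples each) for the tested Hox genes by paralogue group; colour and shape give the cluster, and filled symbols passed adjusted p under 0.05. Groups 10 to 13 lie below 0 throughout, and Hoxc10, Hoxc11 and Hoxa13, which had 1 or 2 counts in SOMD, have fitted values that depend on the prior count.

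Sclerotome factors rose in SOMD. Of 9 genes of the list, 7 rose and 1, Mgp, fell (median log2 fold change 2.98); Mgp, a matrix inhibitor of calcification, lost its call without SOMA1, SOMA4, SOMD3 or SOMD4. Pax1, the paired-box factor of ventral sclerotome, had 69.1, 85.9, 75.9 and 69.4 CPM in SOMD, against 5.43, 0.932 and 0.367 CPM in SOMA (log2 fold change 4.86 ± 0.58 SE, edgeR adjusted p = 7.2e-05). Nkx3-2, a homeobox factor downstream of Hedgehog that promotes cartilage fate, had 11.7, 8.35, 7.6 and 11.9 CPM in SOMD, against 0.63, 0.143 and 0.245 CPM in SOMA (log2 fold change 4.57 ± 0.38 SE, edgeR adjusted p = 4.05e-06). Sox9, the main factor of cartilage, which stands in the cartilage list, had 58.4, 46.2, 38.8 and 53.7 CPM in SOMD, against 9.95, 4.73 and 5.44 CPM in SOMA (log2 fold change 2.76 ± 0.34 SE, edgeR adjusted p = 9.63e-05). The groups did not overlap for any of these, and SOMA1 was the highest SOMA library for each. Pax9, the partner of Pax1, averaged 12.2 ± 3.56 CPM in SOMD and 1.4 ± 1.34 CPM in SOMA. Zic1, a zinc finger factor of dorsal somites and neural tube, averaged 50.4 ± 19.2 CPM in SOMD and 0.73 ± 0.831 CPM in SOMA; both rose. Foxd1 (1.91) and Twist1 (1.17), factors of mesenchyme, also rose on the log2 scale.

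AI646519, matched by its RefSeq synonym to the PEAT long RNA of the series title and chosen here after its values were seen, had 2.42, 2.07, 2.03 and 2.31 CPM in SOMD, against 0.035, 0.143 and 0 CPM in SOMA (log2 fold change 5.25 ± 0.78 SE, edgeR adjusted p = 0.000388). In GENCODE M21 (GRCm38) it spans chr2:147357454-147362793 on the minus strand, and Pax1 spans chr2:147361925-147393295 on the plus strand, so the gene models overlap, and without strand the reads of the overlap cannot be told apart. Zic4, a relative of Zic1 also chosen after its values were seen, had 358 counts in SOMD and none in SOMA, at least 102-fold higher with SOMA set to 3 counts over the group.

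**Figure D4:**
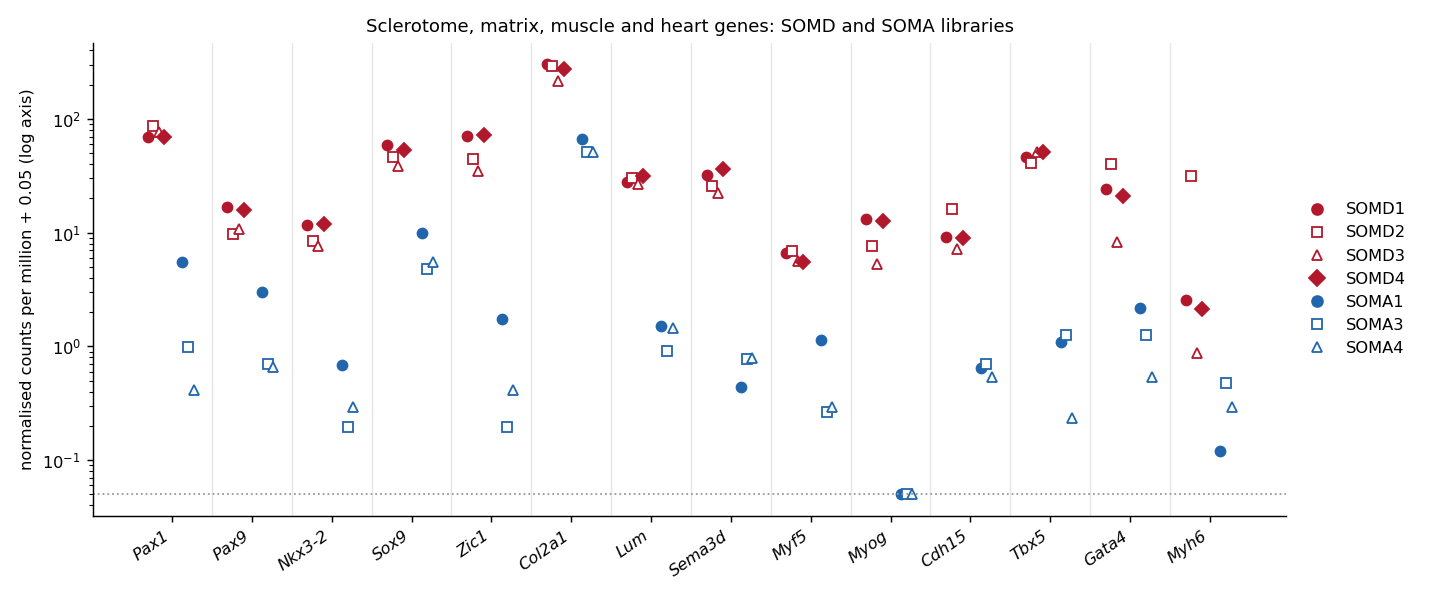
Normalised CPM plus 0.05 on a log axis for 14 sclerotome, matrix, muscle and lateral plate genes; symbols as in the plot of presomitic genes, with SOMD (red) left of SOMA (blue). All 14 genes have every SOMD library above every SOMA library. SOMA1 is the highest SOMA library for Pax1, Pax9, Nkx3-2, Sox9, Zic1, Col2a1, Lum, Myf5 and Gata4, and SOMD2 stands apart in Myh6.

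Matrix genes rose with the sclerotome. Among 12 tested cartilage factors and matrix genes 6 rose and none fell (median log2 fold change 0.66), with 3 higher without SOMA3 or without SOMA4 and 1 lower without SOMA3, SOMD2 or SOMD3. Col2a1, the main collagen of cartilage, had 303, 294, 215 and 273 CPM in SOMD, against 66.5, 51.4 and 51.1 CPM in SOMA (log2 fold change 2.23 ± 0.15 SE, edgeR adjusted p = 9.72e-07). Col9a1, a collagen on the same fibrils, averaged 73.4 ± 7.5 CPM in SOMD and 29.4 ± 10.5 CPM in SOMA. Col11a1, of the same fibrils, averaged 54.4 ± 18.9 CPM in SOMD and 25.3 ± 7.51 CPM in SOMA. Both rose, and Col11a1 lost its call without SOMA3 (0.0708) or SOMA4 (0.0875, edgeR adjusted p). Of 14 collagens outside cartilage 7 rose and 1 fell. Col3a1, a fibrillar collagen of loose connective tissue, averaged 852 ± 129 CPM in SOMD and 150.2 ± 82.4 CPM in SOMA (log2 fold change 2.5 ± 0.32 SE, edgeR adjusted p = 0.000117). Col1a2 (1.5), Col6a2 (1.47) and Col12a1 (3.28) rose on the log2 scale. Small leucine-rich proteoglycans, which coat collagen fibrils, rose in 5 of 6 tested cases (median 2.27). Lum had 27.9, 30.2, 26.6 and 31.1 CPM in SOMD, against 1.47, 0.861 and 1.41 CPM in SOMA (log2 fold change 4.49 ± 0.22 SE, edgeR adjusted p = 1.11e-07). The 4 SOMD libraries lay close together and far above the highest SOMA library. Dcn (2.47), Bgn (1.34) and Fmod (2.06) were higher as well, Fmod without a call when SOMA3, SOMA4 or SOMD2 was left out (edgeR adjusted p of 0.0529 to 0.0698).

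Of 24 basement membrane, fibronectin and integrin genes 6 rose and 4 fell, close to no net change (median log2 fold change 0.19), and 2 fell without SOMA1 and 1 without SOMA3 or SOMD3. Itga9, a receptor chain for tenascin, averaged 171 ± 42 CPM in SOMD and 42.7 ± 14.4 CPM in SOMA. Tnc, tenascin C, averaged 81.6 ± 32.5 CPM in SOMD and 16.8 ± 7.16 CPM in SOMA. Both rose, as did the fibronectin receptor chain Itga4 (1.79) and the fibrillin Fbn1 (1.43) on the log2 scale. Tendon progenitor genes were at low levels, with 1 of 4 tested higher, Fmod, which is also a proteoglycan, and Scx, the tendon factor, averaged 1.25 ± 0.223 CPM in SOMD and 1.27 ± 0.374 CPM in SOMA. Mesenchymal factors rose in 3 of 8 cases and fell in 1, with Snai2 (0.95) and Prrx2 (0.82) higher and Zeb2 (-0.60) lower. Fap and Nxf3 were among the 10 largest increases. Fap, a surface protease of fibroblasts, had 11.4, 16.6, 11.7 and 12.7 CPM in SOMD, against 0.245, 0.215 and 0.0611 CPM in SOMA (log2 fold change 6.14 ± 0.54 SE, edgeR adjusted p = 5.23e-06). Nxf3, related to RNA export factors, had 4.64, 14, 10.6 and 7.45 CPM in SOMD, against 0.035, 0.287 and 0.0611 CPM in SOMA (log2 fold change 6.54 ± 0.69 SE, edgeR adjusted p = 2.62e-05). Pkdcc, a secreted kinase acting on matrix proteins and chosen after its values were seen, averaged 276 ± 8.93 CPM in SOMD and 16.7 ± 3.44 CPM in SOMA.

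Surface molecules that steer cells and axons changed in both directions. Of 14 semaphorins, neuropilins and plexins 7 rose and 3 fell (median log2 fold change 0.64). Sema3d had 32, 25.6, 22.2 and 36.5 CPM in SOMD, against 0.385, 0.717 and 0.734 CPM in SOMA (log2 fold change 5.58 ± 0.38 SE, edgeR adjusted p = 7.48e-07). Sema3a, a repellent of axons and neural crest, averaged 134 ± 25.1 CPM in SOMD and 30.6 ± 5.23 CPM in SOMA. Sema3e, which repels vessels, averaged 1.56 ± 0.808 CPM in SOMD and 9.17 ± 3.91 CPM in SOMA. Sema3d and Sema3a rose, as did Sema5a (1.66), Sema3e fell, and none had overlapping groups. Of 16 Eph receptors and ephrins 4 rose and 6 fell. Epha3 (3.38) and Epha7 (2.78) rose, and Efna1 (-1.92) and Efna3 (-2.35) fell, as log2 fold changes. Among 12 cadherins and protocadherins 5 rose and 4 fell. Cdh11, the mesenchymal cadherin, averaged 226 ± 20.7 CPM in SOMD and 100.4 ± 23 CPM in SOMA and rose. Pcdh10 averaged 3.12 ± 0.924 CPM in SOMD and 0.342 ± 0.173 CPM in SOMA and rose. Pcdh19 averaged 18.6 ± 1.11 CPM in SOMD and 214 ± 36.8 CPM in SOMA and fell.

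Formed somite factors did not move together: 3 of 8 rose and 3 fell. Meox2, a homeobox factor of somites, had 39.4, 44.2, 43.1 and 43.6 CPM in SOMD, against 13.1, 7.6 and 6.42 CPM in SOMA (log2 fold change 2.22 ± 0.22 SE, edgeR adjusted p = 1.37e-05). Its relative Meox1 had 223, 339.6, 303 and 214 CPM in SOMD, against 416, 355 and 423 CPM in SOMA (log2 fold change -0.48 ± 0.18 SE, edgeR adjusted p = 0.094) and did not pass the test, although every SOMD library lay below every SOMA library. Tcf15 (paraxis), needed for somites to become epithelial, had 25, 43, 33.5 and 21.3 CPM in SOMD, against 75.5, 60.3 and 69.6 CPM in SOMA (log2 fold change -1.07 ± 0.27 SE, edgeR adjusted p = 0.0154). SOMD2 held the highest Meox1 and Tcf15 level of the SOMD libraries, and without SOMD1 and SOMD4 together Tcf15 lost its call (0.0774, edgeR adjusted p). Uncx, which marks the rear of each somite, averaged 30.7 ± 5.92 CPM in SOMD and 13.9 ± 4.64 CPM in SOMA. Tbx18, which marks the front, averaged 29.7 ± 8.76 CPM in SOMD and 11.2 ± 4.65 CPM in SOMA; both rose. Foxc1 (-0.79) and Foxc2 (-1.01), forkhead factors of paraxial mesoderm, fell.

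The dermomyotome list was split likewise, with 3 of 12 higher and 4 lower. Pax3, which marks the whole dermomyotome, had 25.9, 49.1, 31.9 and 25.4 CPM in SOMD, against 58.6, 36.1 and 36.4 CPM in SOMA and did not pass the test (log2 fold change -0.32 ± 0.28 SE, edgeR adjusted p = 0.536). Pax7, its paralogue in muscle progenitors, had 3.86, 3.53, 1.81 and 2.9 CPM in SOMD, against 0.35, 0.287 and 0.367 CPM in SOMA (log2 fold change 3.07 ± 0.44 SE, edgeR adjusted p = 0.00029). Lbx1, a homeobox factor of migrating limb muscle precursors, had 3.6, 2.41, 2.86 and 4.09 CPM in SOMD, against 0.14, 0.215 and 0 CPM in SOMA (log2 fold change 4.66 ± 0.69 SE, edgeR adjusted p = 0.000388). For Pax3 the groups overlapped, for Pax7 and Lbx1 they did not. En1, a homeobox factor of the central dermomyotome, had 163 counts in SOMD and 3 in SOMA, 46.5-fold higher in SOMD (95% exact interval of counting error 15.6 to 228). Met, the receptor that lets muscle precursors migrate, averaged 14.7 ± 1.62 CPM in SOMD and 37.7 ± 9.56 CPM in SOMA and fell; the count of lower genes was 2 without SOMA1 or without SOMD3.

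Genes of muscle differentiation rose in SOMD. All 4 tested myogenic regulators rose (median log2 fold change 4.31, the same with Myog at its bound). Myf5, the first factor of the muscle lineage, had 6.54, 6.8, 5.57 and 5.49 CPM in SOMD, against 1.09, 0.215 and 0.245 CPM in SOMA (log2 fold change 3.33 ± 0.46 SE, edgeR adjusted p = 0.000236). Myog, which switches on muscle fibre genes, had 13, 7.57, 5.27 and 12.6 CPM in SOMD, against 0 CPM in every SOMA library. Its 717 counts in SOMD against none in SOMA make it at least 204-fold higher, with SOMA set to 3 counts over the group, and edgeR gave an adjusted p of 0.000385. Myf6 had 66 counts in SOMD and 1 in SOMA, 56.5-fold higher in SOMD (9.79 to 2260.0, 95% exact interval of counting error). Mef2c, a factor of skeletal and heart muscle, averaged 15.7 ± 4.54 CPM in SOMD and 7.27 ± 2.17 CPM in SOMA and lost its call without SOMA1, SOMA4 or SOMD2 (edgeR adjusted p of 0.0719 to 0.0986). Myod1, the other early regulator, did not pass the filter, with 9 counts in SOMD and 1 in SOMA.

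Of 21 tested sarcomere and muscle fibre genes 12 rose and 2 fell (median log2 fold change 1.28); the lower ones, Myl1 and Des, numbered 0 without SOMA3, SOMA4 or SOMD3 and 1 without SOMA1, SOMD2 or SOMD4. Cdh15, the cadherin of muscle precursors, had 9.02, 16.1, 7.15 and 8.85 CPM in SOMD, against 0.595, 0.646 and 0.489 CPM in SOMA (log2 fold change 4.19 ± 0.45 SE, edgeR adjusted p = 3.24e-05). Ttn, the giant spring of the sarcomere, had 8.76, 14.5, 4.14 and 7.52 CPM in SOMD, against 0.49, 0.717 and 0.734 CPM in SOMA (log2 fold change 3.8 ± 0.51 SE, edgeR adjusted p = 0.000172). Tnnt2, the troponin of heart and early skeletal muscle, had 5.56, 14.8, 2.94 and 6.22 CPM in SOMD, against 0.525, 1.08 and 0.673 CPM in SOMA (log2 fold change 3.42 ± 0.51 SE, edgeR adjusted p = 0.000387). SOMD2 was the highest library for these genes and SOMD3 the lowest. Unc45b, the myosin chaperone, averaged 2.08 ± 1.26 CPM in SOMD and 0.0823 ± 0.088 CPM in SOMA. Myh3, the embryonic myosin, was chosen after its values were seen. It had 12.4, 1.29, 0.753 and 10.9 CPM in SOMD, against 0.245, 0.0717 and 0.122 CPM in SOMA (log2 fold change 4.83 ± 1.19 SE, edgeR adjusted p = 0.0128), with SOMD1 and SOMD4 highest. It lost its call without SOMA3 (0.0502), SOMA4 (0.0544) or the pair SOMD1 and SOMD4, where its log2 fold change was 2.57 (edgeR adjusted p = 0.182). Actc1, the actin of heart and early muscle, had 31.4, 40.5, 13.4 and 31.1 CPM in SOMD, against 25.5, 15.6 and 17.2 CPM in SOMA and did not pass (log2 fold change 0.54 ± 0.34 SE, edgeR adjusted p = 0.36). Tnni1, whose promoter is shown above and which was chosen after its values were seen, averaged 18.6 ± 3.12 CPM in SOMD and 10.3 ± 0.523 CPM in SOMA (log2 fold change 0.86 ± 0.16 SE, edgeR adjusted p = 0.00231).

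Some heart markers were higher in SOMD as well. Of 10 tested lateral plate and heart markers 4 rose and 1 fell (median log2 fold change 0.72), and their summed level was 186 to 277 CPM in the SOMD and 155 to 253 CPM in the SOMA libraries. Myh6, the myosin of the atria, had 2.48, 31.4, 0.828 and 2.1 CPM in SOMD, against 0.070, 0.43 and 0.245 CPM in SOMA (log2 fold change 5.67 ± 1.24 SE, edgeR adjusted p = 0.00603). Myl7, an atrial light chain, had 5.49, 19.8, 4.44 and 4.79 CPM in SOMD, against 0.455, 0.215 and 0.183 CPM in SOMA (log2 fold change 4.91 ± 0.66 SE, edgeR adjusted p = 0.000189). Gata4, a factor of heart and splanchnic mesoderm, had 24.2, 40.5, 8.28 and 21 CPM in SOMD, against 2.14, 1.22 and 0.489 CPM in SOMA (log2 fold change 4.1 ± 0.61 SE, edgeR adjusted p = 0.000388). SOMD2 was the highest library for all 3, as it was for Ttn and Tnnt2, and SOMD3 the lowest SOMD library. The part of heart cells in the fibre gene result was not tested; with only SOM libraries of under 11% of reads in no gene, which leaves SOMD2 and SOMD3, 7 fibre genes were higher. Nkx2-5, the heart factor, did not pass the filter, with 83 counts in SOMD and 2 in SOMA. Isl1, a factor of second heart field and hindlimb chosen after its values were seen, averaged 13 ± 5.51 CPM in SOMD and 55.8 ± 28.1 CPM in SOMA, and it lost its call without SOMA1, SOMD2 or SOMD3. Among the SOMD libraries, SOMD2 held the least Isl1 and also the least Tbx5, a forelimb and heart factor described next.

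Regional genes of the limbs differed as well. Tbx5, the forelimb and heart T-box factor, had 45.8, 40.5, 51 and 50.7 CPM in SOMD, against 1.05, 1.22 and 0.183 CPM in SOMA (log2 fold change 5.8 ± 1.02 SE, edgeR adjusted p = 0.00128). Tbx4, its hindlimb relative, had 0.719, 0.258, 0.151 and 0.734 CPM in SOMD, against 90.4, 33.4 and 25.3 CPM in SOMA (log2 fold change -6.62 ± 1.47 SE, edgeR adjusted p = 0.00698). Pitx1, the hindlimb homeobox factor, had 2.55, 2.75, 1.58 and 2.1 CPM in SOMD, against 133, 103 and 104 CPM in SOMA (log2 fold change -5.69 ± 0.51 SE, edgeR adjusted p = 6.3e-06). Tbx4 and Pitx1 were chosen after their values were seen, and neither they nor Tbx5 overlapped between the groups. Lhx9, a LIM factor of limb mesenchyme, had 79.7, 9.38, 29.9 and 82.1 CPM in SOMD, against 1.3, 0.215 and 0.306 CPM in SOMA (log2 fold change 5.83 ± 0.95 SE, edgeR adjusted p = 0.000774). SOMD1 and SOMD4 stood highest, SOMD3 between and SOMD2 lowest. Rspo4, an R-spondin that strengthens Wnt signals, had 42.6, 12.3, 18.4 and 38.3 CPM in SOMD, against 1.3, 0.717 and 0.978 CPM in SOMA (log2 fold change 4.52 ± 0.47 SE, edgeR adjusted p = 2.35e-05). Barx1, a homeobox factor of stomach and limb joints chosen after its values were seen, had 34.3, 20.7, 14.5 and 32.3 CPM in SOMD, against 0.735, 1.58 and 1.35 CPM in SOMA (log2 fold change 4.3 ± 0.37 SE, edgeR adjusted p = 5.14e-06). For both, SOMD1 and SOMD4 lay above SOMD2 and SOMD3. Of 6 head mesoderm markers 1 rose, Lhx2, and 1 fell, Tcf21 (-0.93 on the log2 scale). Lhx2 had 58.6, 10.7, 18.2 and 53.1 CPM in SOMD, against 7.32, 1.79 and 1.53 CPM in SOMA. In this list 2 rose without SOMD3, and without SOMA3 or SOMA4 Lhx2 lost its call (edgeR adjusted p of 0.139 and 0.151).

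For Hedgehog, the ventral signal that induces sclerotome, genes of its receptors, transducers and targets were compared. The signal itself was not measured. Of 11 tested genes 4 rose and none fell (median log2 fold change 0.50). Hhip, a decoy receptor and target, had 24.1, 30.6, 27.2 and 27.2 CPM in SOMD, against 8.26, 5.52 and 3.79 CPM in SOMA (log2 fold change 2.21 ± 0.21 SE, edgeR adjusted p = 1.17e-05). Cdon, a co-receptor, had 113, 109, 104 and 113 CPM in SOMD, against 43.1, 37.4 and 36.3 CPM in SOMA (log2 fold change 1.48 ± 0.11 SE, edgeR adjusted p = 2.17e-06). Gli1, the target most used as a readout, had 98.3, 106, 65 and 91.9 CPM in SOMD, against 88.4, 51 and 34.5 CPM in SOMA and did not pass (log2 fold change 0.60 ± 0.29 SE, edgeR adjusted p = 0.205). SOMA1 lay among the SOMD libraries for Gli1, and without SOMA1 it passed (log2 fold change 1.05, edgeR adjusted p = 0.0117). It also passed with the share of reads in no gene as a covariate (0.65, adjusted p = 0.0223 by edgeR); the Hhip and Cdon groups did not overlap. Boc, a further co-receptor, averaged 53.5 ± 9.76 CPM in SOMD and 25.5 ± 5.06 CPM in SOMA. Gli2, a transducer, averaged 97.7 ± 10.8 CPM in SOMD and 60.3 ± 10.4 CPM in SOMA. Both rose, and Gli2 lost its call without SOMA4 (0.0594) or SOMD2 (0.0513, edgeR adjusted p).

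BMP response genes rose in 2 of 10 cases and fell in none. Id2, an inhibitor of helix-loop-helix factors, averaged 150.3 ± 12.9 CPM in SOMD and 94 ± 10.7 CPM in SOMA. Id3 rose too (0.63), while Id1 (0.26) and Msx1 (0.35) did not pass. Of 11 BMP ligands and antagonists 3 rose, Bmp5 (1.62), Bmp7 (1.07) and the BMP-binding protein Bmper (1.52), and 2 fell, Bmp4 (-0.77) and Grem1. Of these 2, 1 was called in each fit that left out SOMA1, SOMA3, SOMA4, SOMD2, SOMD3 or SOMD4. In the PDGF list 2 of 6 rose and 1 fell. Pdgfrb, a receptor of mesenchyme, averaged 159 ± 14.9 CPM in SOMD and 94 ± 22.7 CPM in SOMA and rose. The ligand gene Pdgfc averaged 37.1 ± 7.09 CPM in SOMD and 24 ± 1.64 CPM in SOMA and rose. Pdgfa, a ligand from the epithelial somite, averaged 3.93 ± 0.42 CPM in SOMD and 7.46 ± 0.556 CPM in SOMA and fell. Pdgfc lost its call without SOMA1, SOMA3, SOMA4 or SOMD3 (edgeR adjusted p of 0.0568 to 0.125). Of 20 genes of the IGF system and imprinted growth genes 7 rose and 5 fell, or 3 without SOMA1, SOMA3 or SOMD3. Igf2, the main embryonic growth factor, averaged 2300.0 ± 349 CPM in SOMD and 2273 ± 278 CPM in SOMA and did not pass. Mest rose (0.85), Igfbp4 rose (0.52) and Igfbp2 fell (-0.99).

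Progenitor genes fell in 4 of 12 tested cases and rose in 1. Sall1, Sall3 and Sall4, zinc finger factors of early embryonic cells, had log2 fold changes of -2.34, -1.5 and -1.44. Sall4 had 71.3, 68.1, 71.3 and 67.9 CPM in SOMD, against 175, 199 and 191 CPM in SOMA (log2 fold change -1.44 ± 0.10 SE, edgeR adjusted p = 8.73e-07). Lin28a, which blocks let-7 maturation, averaged 354 ± 71 CPM in SOMD and 499 ± 86.8 CPM in SOMA. Its paralogue Lin28b averaged 241 ± 33.6 CPM in SOMD and 171 ± 7.42 CPM in SOMA. Lin28a fell, with overlapping libraries, and Lin28b rose; Lin28a lost its call without SOMA3, SOMA4 or SOMD2 (edgeR adjusted p of 0.0594 to 0.171).

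Few cell cycle, ribosomal protein and respiratory chain genes differed between the ends. Among 28 cell cycle genes 1 rose, Ccnd3 (0.30), and 1 fell, Mycn (-0.63), with a median log2 fold change of -0.00326. Of 9 tested cell cycle inhibitors 2 rose, Cdkn1b and Cdkn1c (0.66, the imprinted inhibitor), and 3 fell, Btg2 (-2.55), Gadd45g (-1.22) and Cdkn1a (-1.12); without SOMA4 1 rose. Of 80 cytosolic ribosomal protein genes tested none passed in either direction by edgeR or DESeq2 (median -0.0578, range -0.23 to 0.12). At an unadjusted edgeR p under 0.05, 0 of them did, against 3558 of all 13711 genes tested, the background for such counts below. Of 76 nuclear respiratory chain genes 1 fell, Ndufa1 (-0.38), which lost its call without SOMA3, SOMA4, SOMD2, SOMD3 or SOMD4. Immediate early and heat shock genes, which rise on handling, passed in none of 17 cases by edgeR (median 0.45), in 1 by DESeq2 and without SOMA3, and in 3 at an unadjusted p under 0.05. The members with the lowest adjusted p, Jund and Atf3, had 0.124 and 0.105 by edgeR. Of 12 p53 targets 4 fell and none rose (median -0.36), with Ccng1 at -0.78, and 2 fell without SOMA4.

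RNA of cholesterol synthesis genes was lower in SOMD than in SOMA, though lowest in SOMC. The summed level averaged 2080 CPM in SOMA, 1510 in SOMB, 1216 in SOMC and 1437 in SOMD. Of 20 tested genes 11 fell and none rose (median log2 fold change -0.45), and all 20 estimates were below 0. Idi1, which makes an isoprene unit, had 36.7, 34.5, 33.2 and 38.2 CPM in SOMD, against 50.3, 75.8 and 70.3 CPM in SOMA (log2 fold change -0.89 ± 0.14 SE, edgeR adjusted p = 0.000582). Cyp51, a demethylase of the sterol core, averaged 118 ± 16.8 CPM in SOMD and 206 ± 31.3 CPM in SOMA. Hmgcs1, an early enzyme, averaged 206 ± 26.7 CPM in SOMD and 305 ± 39.4 CPM in SOMA. The groups did not overlap in these, with SOMA1 the lowest SOMA library, and 6 genes fell without SOMA3 or without SOMA4. Glucose uptake and glycolysis changed in few genes: of 18 tested 3 fell and 1 rose. Slc2a3, a high-affinity glucose carrier, had 16.7, 28, 29 and 16.9 CPM in SOMD, against 95.4, 202 and 181 CPM in SOMA (log2 fold change -2.72 ± 0.34 SE, edgeR adjusted p = 9.82e-05). Aldoc, a glycolytic aldolase, averaged 1.5 ± 0.314 CPM in SOMD and 10.7 ± 4.59 CPM in SOMA and fell. Eno3, an enolase, averaged 108 ± 18.2 CPM in SOMD and 67.9 ± 4.6 CPM in SOMA and rose. Slc2a1 fell (-0.75) with no call without SOMA3 or SOMA4 (edgeR adjusted p of 0.0739 and 0.0842).

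Markers of other cells that a lineage sort could let through were read library by library. Of 14 tested neural tube markers 5 rose and none fell (median log2 fold change 1.05), with Dcx, a marker of young neurons, at 15.1, 3.87, 5.19 and 15.9 CPM in SOMD, against 0.42, 0.646 and 0.367 CPM in SOMA. Their summed level was 74.4 to 117 CPM in SOMD and 81.1 to 103 CPM in SOMA libraries, and the count was 3 without SOMA1, 1 without SOMA3, 2 without SOMA4 and 2 without SOMD3, while 1 was lower without SOMA3 and 2 without SOMD3. Of 7 tested neural crest markers 2 rose and none fell. Sox10 averaged 1.95 ± 1.01 CPM in SOMD and 0.131 ± 0.114 CPM in SOMA, and Ednrb averaged 9.21 ± 0.187 CPM in SOMD and 2.39 ± 0.532 CPM in SOMA. The list summed to 18.9 to 28.0 CPM in SOMD and 11.5 to 12.7 CPM in SOMA. No endothelial marker of 12 passed by edgeR, 1 by DESeq2 and without SOMA3. At an unadjusted edgeR p under 0.05, 1 did, against 3558 of all 13711 genes tested. The endothelial sum was 124 to 309 CPM in SOMD, where SOMD2 was highest, and 66.3 to 254 CPM in SOMA, where SOMA3 was. Of 5 tested erythroid markers Epor fell (-0.99), with no call without SOMA3, SOMA4, SOMD2 or SOMD3, and the embryonic globin Hbb-y averaged 15.4 ± 12.5 CPM in SOMD and 8.5 ± 8.45 CPM in SOMA. The adult globins Hba-a1 and Hba-a2 had no count in any of the 7 libraries. None of 7 macrophage markers passed the filter.

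Surface ectoderm markers passed in none of 9 cases by edgeR (median log2 fold change -0.92) and in 3 by DESeq2. By edgeR, 1 or 2 were lower without SOMA3, SOMA4, SOMD2 or SOMD3. At an unadjusted edgeR p under 0.05, 4 passed, against 3558 of all 13711 genes tested. The markers summed to 78.6 to 150 CPM in SOMD and 144 to 195 CPM in SOMA. Of 8 intermediate mesoderm markers 2 fell, Ret (-2.42) and Osr1 (-1.05), and none rose. Of 8 tested endoderm and notochord markers 1 fell and none rose, or 1 rose without SOMA1. The lower one was Noto, the homeobox factor of the node and posterior notochord, with no count in SOMD and 70 in SOMA, at least 27.3-fold lower with SOMD set to 3 counts over the group. Shh, the notochord ligand, averaged 2.75 ± 0.996 CPM in SOMD and 1.57 ± 0.741 CPM in SOMA and did not pass. The part of these cells in the gene differences above was not tested.

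Along the 4 levels most of the difference was not left to the last step. Among the 592 genes at least 2-fold higher in SOMD, the median gene had covered 47.1% of its log2 difference from SOMA at SOMB and 76.7% at SOMC, and 399 (67.4%) had means that rose at each level. Among the 475 at least 2-fold lower the shares were 59.1% and 82.6%, and 306 (64.4%) had means that fell at each level. These counts use the same SOMA and SOMD libraries that chose the genes and are a description. Shares were taken on log2 of mean CPM plus 0.125. Where a mean lies near or below 0.125, as in SOMD for Msgn1, Mesp2, Cdx4 and Cer1, the share depends on that constant. The presomitic and segmentation genes differed in the share covered at SOMB. Msgn1, with 83.5% of its log2 difference covered at SOMB, averaged 29.6 CPM in SOMA, 0.369 in SOMB, 0.195 in SOMC and 0.0953 in SOMD. Tbx6, T, Mesp2, Ripply2 and Hes7 had likewise covered 77.6%, 68%, 75.5%, 76% and 86.8% at SOMB. Cdx2, Cdx4 and Cer1 had covered 47.0%, 43.3% and 34.4% at SOMB. In CPM, Cdx2 averaged 38.7 in SOMA and 4.33 in SOMB, Cdx4 59.8 and 4.62, and Cer1 36.1 and 5.66. The mean of Hoxc10 fell at each level, with 140.3, 48.1, 7.58 and 0.0117 CPM from SOMA to SOMD. Its libraries varied widely within the middle levels, from 18.0 to 76.4 CPM in SOMB and 0.251 to 22.0 CPM in SOMC, and overlapped between them.

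Genes that rose fell into early and late courses. Pax1 averaged 2.24, 60.5, 62.9 and 77 CPM from SOMA to SOMD, and Myf5 0.515, 5.16, 6.02 and 6.13, so both had made most of the difference at SOMB. Nkx3-2 rose stepwise, with 0.339, 2.32, 6.02 and 9.24 CPM. Myog averaged 0, 0.0813, 1.56 and 8.55 CPM, and Lbx1 0.118, 0.0956, 0.567 and 3.04, so in CPM both rose mostly between SOMC and SOMD. On the log2 scale Myog had covered 61.3% and Lbx1 40.7% of the difference at SOMC. Both SOMA means lay below the 0.125 CPM added before taking logs, so these shares depend on it. Not every gene ran 1 way. Of the 592 genes at least 2-fold higher in SOMD, 106 were above their SOMD mean at SOMC. Of the 475 at least 2-fold lower, 111 were below their SOMD mean at SOMC. Uncx and Hoxc8 were highest in the middle. Uncx averaged 13.9, 43.8, 42.1 and 30.7 CPM from SOMA to SOMD, and Hoxc8 50.5, 69.8, 84 and 19.9, so the difference between the ends leaves out their highest levels.

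**Figure D5:**
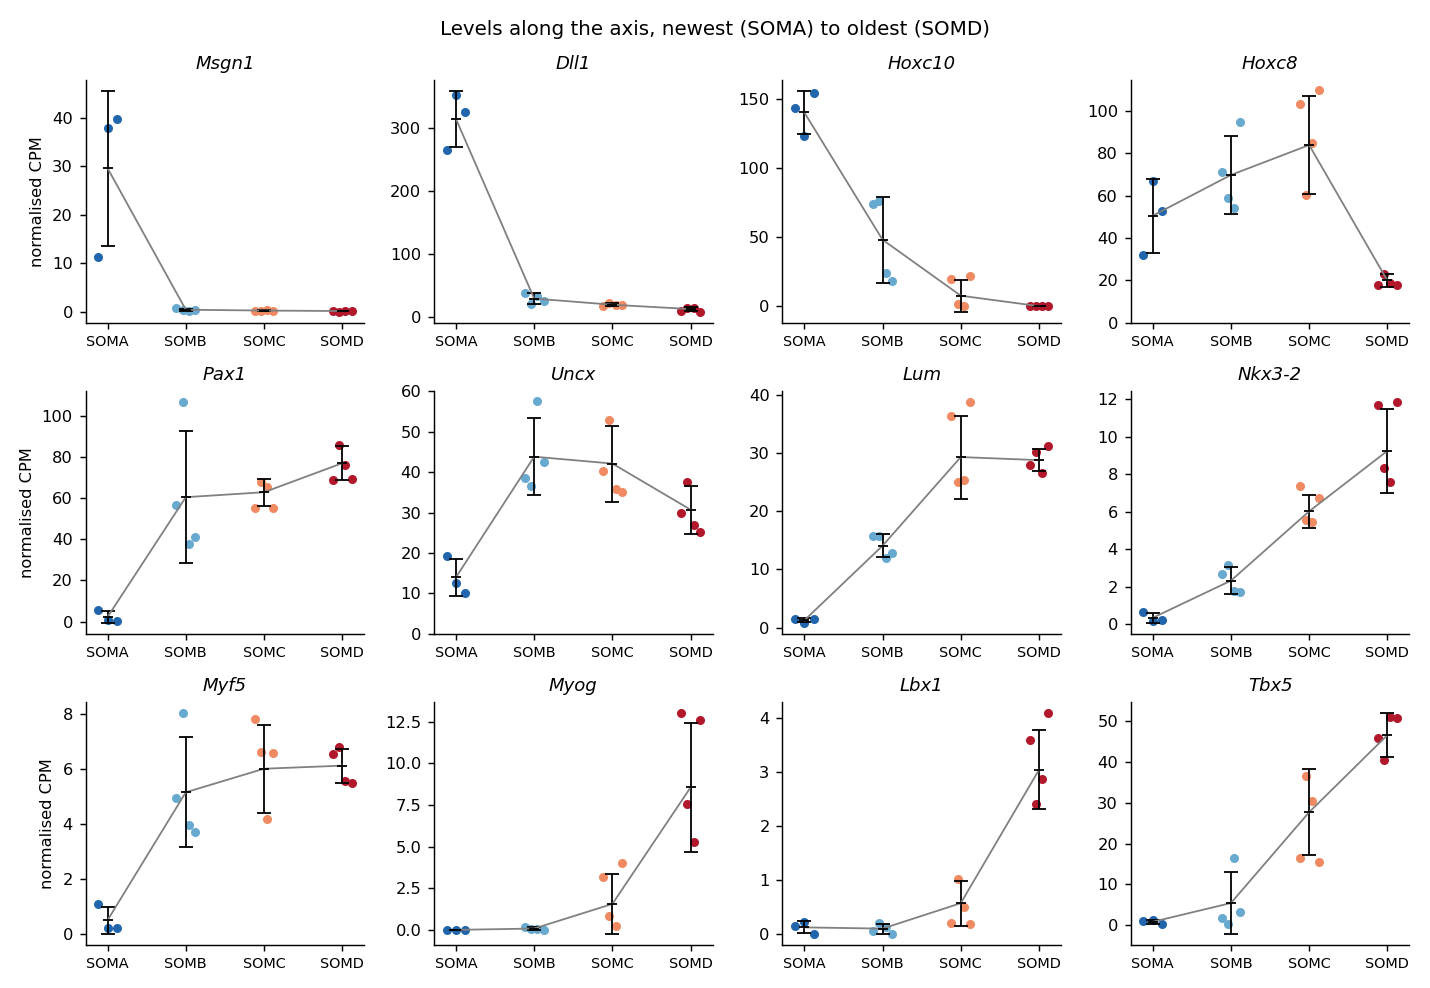
Normalised CPM of 12 genes at the 4 levels from SOMA to SOMD; dots are libraries, black bars the mean ± SD over samples with the nearly identical pairs of SOMC and SOMD counted once, and grey lines join the means. Msgn1 and Dll1 drop between SOMA and SOMB, and Pax1 and Myf5 have made most of the difference at SOMB. Myog and Lbx1 rise in CPM mostly between SOMC and SOMD. With 0.125 CPM added to each mean, 61.3% and 40.7% of their log2 difference was covered at SOMC. Uncx and Hoxc8 are highest between the ends.

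Within each end, the libraries were not alike. SOMA1 held less of the tail bud genes and more of the sclerotome genes than the other SOMA libraries, with 190 against 422 and 365 CPM summed over the presomitic and tail bud factors and 235 against 121 and 113 CPM summed over the sclerotome factors. SOMD2 was highest for Myh6, Myl7 and Gata4 and for the summed heart and lateral plate and the summed endothelial markers. It was the lowest SOMD library for the heart factors Tbx5 and Isl1. SOMD1 and SOMD4 were the highest SOMD libraries for Lhx9, Rspo4, Barx1, Lhx2, Hoxa10, Hoxd11 and Hoxd13. Of 2066 called genes, 2065 had the same sign in the libraries with over 11% of reads in no gene (SOMD1 and SOMD4 against SOMA1). In the others (SOMD2 and SOMD3 against SOMA3 and SOMA4) all 2066 did; together these are the libraries that made the calls.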

How the data were processed

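The authors deposited raw counts of reads per gene for each library; per the submitters' processing notes TopHat2 2.0.9 and HTSeq 0.6 were among their tools. The 5 HTSeq summary lines were left out. SOMD1 with SOMD4, and the likewise near-identical SOMC1 with SOMC4, were summed. Counts of all SOM libraries were fitted in edgeR 4.0.16 (R 4.3.3) with TMM scaling, filterByExpr (minimum count 10, minimum total 15) and glmQLFTest; fold changes are SOMD over SOMA, and calls are Benjamini-Hochberg adjusted p under 0.05 over 13711 of 23337 genes. The procedure was tested on simulated data. Intervals from counts cover counting error only, since PCR copies are not marked.

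The groups compared and the 53 lists (768 genes) were chosen with earlier results of these data known. Genes named are the 10 largest increases and decreases among called, non-overlapping genes of at least 5 CPM, a set of anchor genes, and up to 4 members of each list with the lowest p. Besides those marked in the text, Cdkn1b, Cdx1, Des, Efnb2, Fgfr1, Fgfr2, Fgfr3, Fgfr4, Grem1, Mgp, Myl1, Rfng and Snai1, named to complete a count, were chosen after their values were seen, as were the counts of Myod1 and Nkx2-5. The count for 1 list, the Hox cofactors, is not reported here. Alternatives were other scalings, filters, tools, libraries and designs; versions for figures were Python 3.11.15 and matplotlib 3.10.9.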

Additional observations from a re-analysis of the deposited data

How the results depend on the processing

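The count of higher genes ran from 746 (without SOMA4) to 1121 (without SOMA1) and that of lower genes from 681 (without SOMA4) to 919 (without SOMD1) when 1 library was left out. With only the SOM libraries with under 11% of reads in no gene, chosen after seeing the data, 720 were higher and 654 lower. DESeq2 1.42.0 called 1258 higher and 1076 lower. Other alternatives kept both counts within 1.5 times of 1137 and 929. Same-numbered SOMD and SOMA libraries deviated together for number 1 (correlation 0.436) but not for numbers 3 and 4 (-0.247 and -0.268). The numbers therefore do not pair the libraries throughout. SOMA3 went best with SOMD2 (0.468), SOMA4 with SOMD3 (0.548) and SOMA1 with SOMD4 (0.466) and SOMD1, a hint from the data, not the design, that was used in no fit. With the replicate block, libraries kept separate, 1581 were higher and 1291 lower. Of 189 called genes named, 149 kept their call under every alternative, 40 lost it under at least 1 and 0 reversed. Many of these were named for a low p or a large change, which favours keeping a call. Of all 2066 called genes, 1385 kept their call without SOMA4 and 1256 with only the SOM libraries under 11%. Estimates near 0 that did not pass the test changed sign. Without SOMD1 and SOMD4, an alternative also chosen after seeing the data, the log2 fold change was 0.087 for Cdx1, -0.00126 for Efnb2, -0.039 for Snai1, -0.091 for Igf2 and -0.13 for Scx. With the libraries under 11% it was 0.15 for Pax3, -0.15 for Igf2 and -0.40 for Scx, and with the share in no gene as a covariate -0.000353 for Igf2. Leaving out 1 library at a time gave -0.016 to 0.28 for Efnb2, -0.039 to 0.12 for Igf2, -0.18 to 0.22 for Scx and -0.033 to 0.20 for Snai1. Of 1908 list counts under alternatives 1713 stayed within 1.5 times. The cause of these shifts was not tested. Depth limits genes with few counts, and 9626 genes did not pass the filter.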
